A study of Homo sapiens with 8 samples.

Results

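The H/ACA box small nucleolar RNAs (snoRNAs, symbols beginning SNORA) and small Cajal body RNAs (scaRNAs, symbols beginning SCARNA) were read from a count table of RNA from ChIRP (chromatin isolation by RNA purification) pull-downs. In ChIRP, fixed and sonicated cell lysate is hybridised with biotinylated probes, and the RNA captured with the probes is sequenced. Every gene whose symbol began with SNORA or SCARNA followed by a digit was taken, which gave 239 of the 63140 genes in the table, 214 SNORA and 25 SCARNA. A count in at least 1 library was found for 107 of them, and 88 (73 SNORA and 15 SCARNA) had enough counts to be tested.

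The 8 libraries came from cells labelled as the human acute myeloid leukaemia lines MOLM13 and OCI-AML4, both established lines, collected on day 3 after editing. AAVS1 KO cells were nucleofected with Cas9 ribonucleoprotein and a guide to AAVS1, a site used as an editing control, and HOTSCRAMBL KO cells with Cas9 ribonucleoprotein and a guide to the long non-coding RNA HOTSCRAMBL. AAVS1 CBE and HOTSCRAMBL CBE cells received a cytosine base editor, which changes C to T without cutting both strands, with guides to the same targets. All 4 groups were therefore edited, the controls included, and each group held 2 libraries, replicate 1 labelled MOLM13 and replicate 2 labelled OCI-AML4. The labels do not state the RNA that the probes target and no input library was analysed here, so each value is an amount of RNA in a pull-down. Levels of HOTSCRAMBL itself were not analysed here, and the editing labels were not checked against it.

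H/ACA RNAs fold into hairpins joined by a hinge (box H) and end shortly after the letters ACA, and they guide the pseudouridine synthase dyskerin (DKC1), held with NHP2, NOP10 and GAR1, to a chosen uridine of a target RNA. SNORA members mostly guide modification of ribosomal RNA in the nucleolus, whereas SCARNA members are kept in Cajal bodies, often through a CAB box, and guide modification of spliceosomal small nuclear RNAs. The SCARNA members were taken by symbol alone and were not sorted by box type, so not all need be of the H/ACA type. Most human members are cut out of the introns of host genes after splicing, so that a member and its host messenger RNA start in the same transcript.

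Sequences of members on which the results turn are given first, 5′ to 3′ in DNA letters, from GENCODE release 29 transcripts (GRCh38) whose ends equal those in the count table. Capitals mark the terminal ACA where it stands exactly 3 bases before the annotated end and, in scaRNAs, the letters TGAG searched as a simple CAB box. SNORA73B (also called U17b or E1b) lies at chr1:28508559-28508762 on the + strand in an intron of RCC1. SNORA22 lies at chr7:65755526-65755659 (+) in an intron of CCT6P1 and its near copy SNORA22C at chr7:65065999-65066132 (+) in an intron of CCT6P3. SNORA23 lies at chr11:9428773-9428954 (+) in an intron of IPO7, and SNORA49 at chr12:132031224-132031359 (+) in an intron of EP400. SCARNA21 lies at chr17:7906122-7906260 (+) in an intron of CHD3, SCARNA11 at chr12:6581474-6581609 (-) in an intron of CHD4, and SCARNA5 at chr2:233275727-233276002 (+) in an intron of ATG16L1.
SNORA73B: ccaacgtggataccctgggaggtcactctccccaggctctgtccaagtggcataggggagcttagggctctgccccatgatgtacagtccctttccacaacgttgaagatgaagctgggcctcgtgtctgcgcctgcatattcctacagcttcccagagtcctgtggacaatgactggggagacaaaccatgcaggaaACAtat
SNORA22: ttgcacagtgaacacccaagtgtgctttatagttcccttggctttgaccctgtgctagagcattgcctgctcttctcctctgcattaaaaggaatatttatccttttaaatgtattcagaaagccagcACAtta
SNORA22C: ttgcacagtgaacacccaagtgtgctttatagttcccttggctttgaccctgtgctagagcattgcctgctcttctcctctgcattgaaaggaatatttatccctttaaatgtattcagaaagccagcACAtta
SNORA23: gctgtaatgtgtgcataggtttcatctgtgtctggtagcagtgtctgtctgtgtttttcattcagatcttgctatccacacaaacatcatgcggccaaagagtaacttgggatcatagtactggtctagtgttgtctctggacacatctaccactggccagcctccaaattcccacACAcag
SNORA49: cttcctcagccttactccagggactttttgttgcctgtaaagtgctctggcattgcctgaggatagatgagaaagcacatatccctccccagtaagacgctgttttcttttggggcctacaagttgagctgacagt
SCARNA21: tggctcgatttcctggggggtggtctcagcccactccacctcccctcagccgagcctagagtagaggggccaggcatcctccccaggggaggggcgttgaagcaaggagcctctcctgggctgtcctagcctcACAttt
SCARNA11: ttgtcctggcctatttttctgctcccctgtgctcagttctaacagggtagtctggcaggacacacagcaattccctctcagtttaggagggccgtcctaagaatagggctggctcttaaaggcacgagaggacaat
SCARNA5: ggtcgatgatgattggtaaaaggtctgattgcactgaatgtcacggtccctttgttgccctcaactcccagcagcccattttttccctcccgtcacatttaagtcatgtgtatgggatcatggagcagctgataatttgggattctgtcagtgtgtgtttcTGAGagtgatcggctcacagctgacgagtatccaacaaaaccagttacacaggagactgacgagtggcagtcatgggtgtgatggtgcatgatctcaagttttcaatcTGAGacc

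SCARNA5 is a composite RNA that joins a C/D part, which guides ribose methylation, to an H/ACA part, and its 2 TGAG matches are in capitals. These capitals mark letters only, and it was not checked whether either match is a CAB box. SNORA22 and SNORA22C were 98.5% identical over their aligned length, so that reads falling in identical stretches fit both places and, by the counting used, were left out. SNORA73B was 93.2% identical to SNORA73A. SCARNA11 and SNORA49 carry no capitals because ACA did not stand 3 bases before their annotated ends, which says only that these letters are not at that place.

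Over all members with a sequence, the terminal ACA was found in 142 of 213 SNORA (66.7%) and 14 of 25 SCARNA (56.0%). The same letters stood there in 5 of 324 C/D snoRNA (SNORD) transcripts (1.5%) and in 14 of 822 transcripts of 120 to 150 bases of other gene types (1.7%). The 4 letters TGAG, read on the transcript strand, occurred in 72.0% of SCARNA, 42.3% of SNORA, 84.9% of SNORD and 52.6% of the other transcripts. The hinge pattern ANANNA occurred in 98.1% of SNORA but also in 83.9% of the other transcripts. The terminal ACA was thus far commoner in the members than in the other sets, which was not so for TGAG.

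Which members could receive a count depended on where they lie. Of the 148 members with no base under an exon of another gene, 95 had a count in at least 1 library, and of 19 with part of their length under such an exon, 12 had. Of the 72 members lying wholly under an exon of another gene, 0 had a count, and by the counting used a read lying in 2 genes is assigned to neither. Among these 72 were SNORA73A, the sister of SNORA73B, under an exon of SNHG3, and the scaRNAs SCARNA12 (under PHB2), SCARNA13 (SNHG10), SCARNA17 (SNHG22) and SCARNA2. Their levels were not measured here, and a count of 0 for them is no sign of absence. By position, 94 members lay in an intron of a host on the same strand (79 with a count), 91 overlapped an exon (12 with a count) and 54 had no host (16 with a count). Copies bearing 1 name were also poorly counted. Of the 27 genes named SNORA70, 6 had a count, and of the 75 members that share a symbol with another member, 18 had one.

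**Figure D1:**
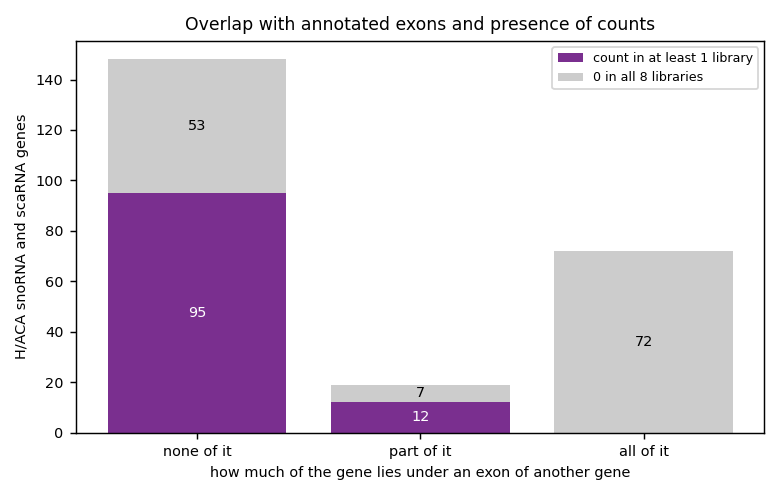
Number of H/ACA snoRNA and scaRNA genes (vertical axis) by how much of each lies under an exon of another gene, split by whether any of the 8 libraries has a count. All 72 genes wholly under an exon are at 0 in every library, while 95 of the 148 with no overlap have a count.

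Total counts per library ran from 20548300 to 37970163. The labelled cell type was checked with 8 myeloid leukaemia genes (among them SPI1, CD33 and CSF3R), all 8 of which were tested and whose summed level was 1715 to 2299 CPM (counts scaled to library size, after TMM scaling, as for every level below). Of genes marking other cell types, 3 erythroid genes summed to at most 0.212 CPM in a library, 2 epithelial genes to at most 0.0787 CPM and 2 fibroblast genes to at most 1.02 CPM, with HBB and KRT19 at 0 in all 8. Of the T cell genes CD3E was at 0 in all 8, and CD3D reached 2.35 CPM in HOTSCRAMBL KO replicate 1. The B cell gene MS4A1 was at most 0.204 CPM. The myeloid sum was 2181 to 2299 CPM in HOTSCRAMBL KO and 1715 to 1896 in the other groups, and LYZ alone stood at 506 and 702 CPM in HOTSCRAMBL KO against 116 to 152 elsewhere; the part of this in the results below was not tested. The labels were not checked against a library of known line, and 119 of 24057 tested genes (0.495%) differed between the libraries labelled MOLM13 and OCI-AML4. So small a share does not bear out that the labels name different lines. The same direction under both labels is therefore agreement between replicates, and was not shown to be agreement between lines. Nothing in the labels says whether the 2 libraries of a group come from more than 1 culture each. The p-values therefore reflect only spread among these libraries, and mostly a spread shared across genes rather than that of the member itself.

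Among the members that could be counted, RNA in the pull-downs was concentrated in few genes. The 72 members wholly under an exon of another gene, SNORA73A among them, are not in these shares. SNORA73B alone held 45.35% of the summed member level, the leading 4 members held 73.5% and the leading 10 held 87.58%. SNORA73B differs from most of its class in being known for early processing of the ribosomal RNA precursor rather than for guiding pseudouridine. Per kilobase of gene, its mean level over the 8 libraries was 8095 CPM per kb, followed by SCARNA21 at 2348, SCARNA11 at 2027 and SCARNA5 at 1533 CPM per kb. SNORA23 at 750.7, SNORA49 at 735.4, SNORA12 at 548 and SNORA79B at 467 CPM per kb came next, then SNORA20 (346.7), SCARNA6 (303.2), SNORA22 (288.2) and SNORA3B (284.9). Of the 15 SCARNA genes tested, 3 thus came directly after SNORA73B, but their order changed between groups. SCARNA5 was above SCARNA11 in AAVS1 KO (1922 against 1562 CPM per kb), and SCARNA11 was above SCARNA21 in HOTSCRAMBL CBE (1889 against 884.9 CPM per kb). These levels hold both mature RNA and any unspliced intron sequence, which the counts cannot separate.

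The first question was whether members differed between HOTSCRAMBL KO and AAVS1 KO cells. Of the 88 tested members, 14 passed the test, 13 higher and 1 lower in HOTSCRAMBL KO (edgeR quasi-likelihood test, Benjamini-Hochberg adjusted p under 0.05 over all 24057 tested genes). The same rule called 8.76% of all tested genes, 4.51% as higher and 4.25% as lower. By class, 11 of 73 SNORA rose and 0 fell, whereas 2 of 15 SCARNA rose and 1 fell. The median log2 fold change was 0.45 over the 88 members and -0.01 over all tested genes, and 61 of the 88 were above 0. The lean upwards was not particular to the members, as the 63 tested SNORD genes had a median of 0.74, with 45 above 0. With scaling by library size alone, in place of TMM, the median of all genes moved to -0.17 and that of the members to 0.29. In that fit 10 members were called higher and 1 lower, beside 10.5% of all tested genes in either direction. In such bulk libraries, fewer cells holding an RNA and less of it per cell cannot be told apart.

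The clearest rises were in 3 SNORA genes of middling level. SNORA22, which guides modification of large-subunit ribosomal RNA, stood at 11.1 and 25.0 CPM in the AAVS1 KO libraries and at 44.2 and 99.7 CPM in the HOTSCRAMBL KO libraries. Both HOTSCRAMBL KO libraries were above both controls, and within each labelled line the ratio was close to 4-fold. The fitted log2 fold change was 1.99 ± 0.28 (SE, adjusted p = 1.29e-05). SNORA20, a guide for small-subunit ribosomal RNA of which 12 bases overlap an exon of its host TCP1, stood at 17.1 and 29.2 CPM in the AAVS1 KO libraries against 66.1 and 109.5 CPM in those of HOTSCRAMBL KO. Its groups did not overlap, and its log2 fold change was 1.92 ± 0.26 (SE, adjusted p = 7.56e-06). SNORA23, which guides large-subunit modification, rose from 79.5 and 99.4 CPM to 165.0 and 254.2 CPM. All values of HOTSCRAMBL KO were again the higher ones, with a log2 fold change of 1.22 ± 0.16 (SE, adjusted p = 5.52e-06). These 3 calls were kept under all 15 alternative settings tried.

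SNORA73B, the most abundant of the members that could be counted, rose by a smaller factor. It stood at 1330 and 1890 CPM in the AAVS1 KO libraries against 2017 and 2612 CPM in those of HOTSCRAMBL KO, a mean of 1610 ± 396 CPM (SD, n = 2) against 2315 ± 421 CPM. The groups did not overlap, but the library labelled OCI-AML4 was the higher one in each, so that the gap within a label was steadier than the group spread shows. The log2 fold change was 0.53 ± 0.08 (SE, adjusted p = 2.14e-05), and the call was lost without the term for the line. SNORA49 behaved likewise, at 41.9 and 94.6 CPM in the AAVS1 KO libraries against 109.3 and 204.0 CPM in those of HOTSCRAMBL KO. Its 2 groups did not overlap, its log2 fold change was 1.21 ± 0.17 (SE, adjusted p = 1.02e-05), and its call too was lost without the line term.

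Of the scaRNAs, SCARNA11 stood at 258.0 and 167.0 CPM in the AAVS1 KO libraries against 421.3 and 325.8 CPM in those of HOTSCRAMBL KO. Its log2 fold change was 0.85 ± 0.15 (SE, adjusted p = 3.36e-04), with no overlap between the groups. The call was lost without AAVS1 KO replicate 1, without HOTSCRAMBL KO replicate 2 and without the line term. SCARNA5, the composite scaRNA, was the only member called lower, at 547.9 and 513.1 CPM in the AAVS1 KO libraries against 442.4 and 362.6 CPM in those of HOTSCRAMBL KO. Both HOTSCRAMBL KO libraries were below both controls (log2 fold change -0.40 ± 0.10 (SE), adjusted p = 0.0117), and leaving out any 1 of the 4 KO libraries or the line term ended the call. SCARNA21, in contrast to its fall under base editing described below, had 404.4 and 354.3 CPM in AAVS1 KO against 552.2 and 395.4 CPM, which overlap. It did not pass the test (log2 fold change 0.31 ± 0.12 (SE), adjusted p = 0.114).

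The remaining calls lay at lower levels and were less stable. SNORA12 had a log2 fold change of 0.71 (adjusted p = 0.0104) at 51.4 and 85.2 CPM in AAVS1 KO against 92.4 and 129.1 CPM. SNORA53 rose from 13.6 and 14.8 CPM to 41.6 and 29.8 CPM (log2 fold change 1.32, adjusted p = 0.0110), and 26 of its bases overlap an exon of SLC25A3. SNORA47 rose from 2.82 and 7.84 CPM to 16.3 and 26.9 CPM (log2 fold change 2.02, adjusted p = 0.00354). Each of these 3 showed the same direction in both labelled lines. SNORA33, encoded in the ribosomal protein gene RPS12, rose from 1.96 and 4.92 CPM to 11.7 and 16.3 CPM (2.04, adjusted p = 0.0229). SNORA22C, the near copy of SNORA22, went from 3.14 and 10.96 CPM to 12.5 and 26.7 CPM (1.49, adjusted p = 0.0329). SNORA19 rose from 1.88 and 3.36 CPM to 7.75 and 14.4 CPM (2.10, adjusted p = 0.0343). The groups of all 3 stood apart in these libraries. SCARNA1, a guide for the spliceosomal U2 RNA and named here after its values were seen, had 2.12 and 5.20 CPM against 11.6 and 13.5 CPM (1.78, adjusted p = 0.0444). The calls of SCARNA1, SNORA22C and SNORA19 were each lost when any 1 of the 8 libraries was left out, and those of SNORA12 and SNORA33 when any 1 of the 4 KO libraries was (SNORA33 also without AAVS1 CBE replicate 1). SNORA47 lost its call without either AAVS1 KO library or HOTSCRAMBL KO replicate 1, and SNORA53 without AAVS1 KO replicate 1 or either HOTSCRAMBL KO library. The count of called members fell to 5 without AAVS1 KO replicate 1, 7 without AAVS1 KO replicate 2, 6 without either HOTSCRAMBL KO library and 7 without the line term, which ended the calls of SNORA12, SNORA22C and SCARNA1 among these. The share of all tested genes called in those fits fell too, to 2.46%, 3.14%, 3.5% and 3.77% without the respective library and 7.22% without the line term.

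**Figure D2:**
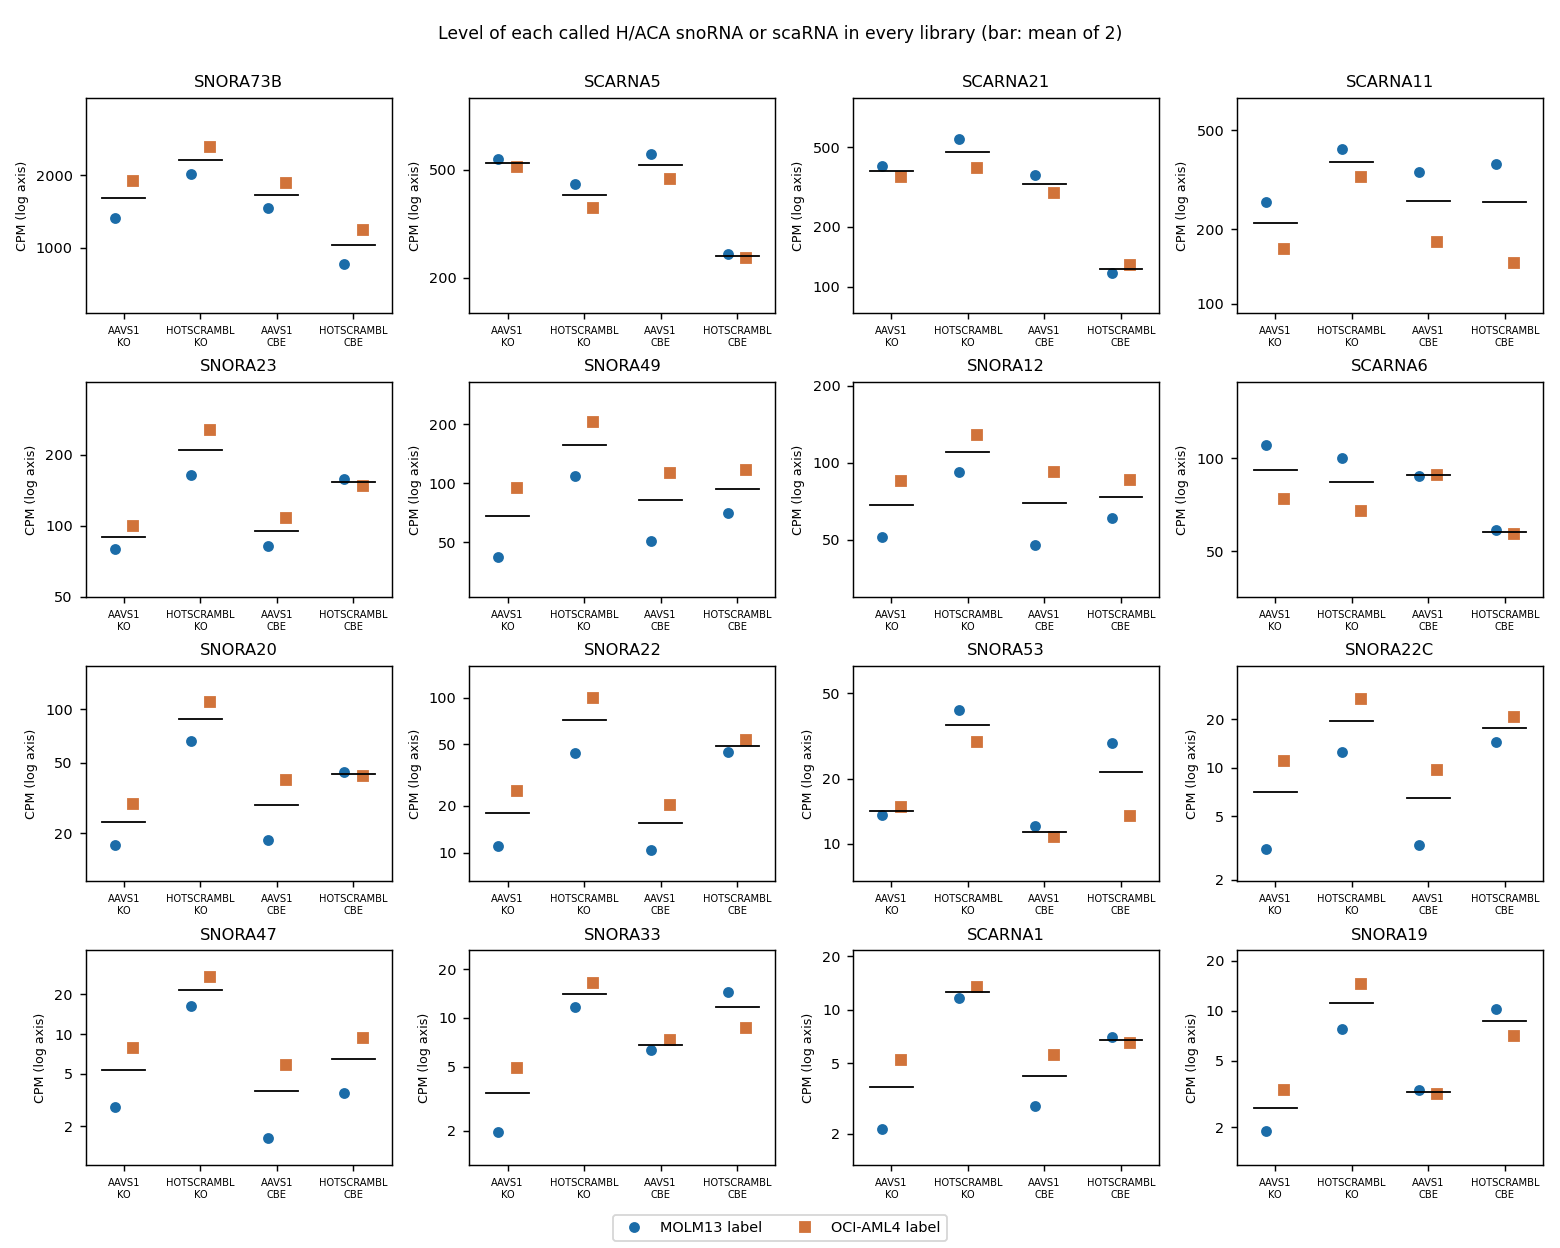
Level in CPM (log axes) of each of the 16 members called with either editor, by group. Circles are libraries labelled MOLM13, squares libraries labelled OCI-AML4, and bars the mean of the 2; SNORA22, SNORA20 and SNORA23 stand higher in both HOTSCRAMBL KO libraries than in both AAVS1 KO libraries, and SCARNA21 is lowest in both HOTSCRAMBL CBE libraries.

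The second question was whether the same members differed under base editing. Between HOTSCRAMBL CBE and AAVS1 CBE, 7 of 88 members passed the test, 3 higher and 4 lower, beside 8.83% of all tested genes (4.56% higher and 4.27% lower). The members' share is close to that background. The count fell to 4 without AAVS1 CBE replicate 1, AAVS1 CBE replicate 2 or HOTSCRAMBL CBE replicate 1, and to 4 without the line term. The share of all genes called fell in the same fits to 2.51%, 3.37%, 2.14% and 6.82%. The 3 SCARNA calls were all lower, as 3 of 15 fell and 0 rose, while of 73 SNORA 3 rose and 1 fell. The member median was 0.24 in log2 against -0.02 over all genes, and it was -0.32 without HOTSCRAMBL CBE replicate 1. With all libraries the median of the SNORD genes was 0.42.

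SCARNA21 showed the largest fall among the called members. It stood at 363.9 and 295.0 CPM in the AAVS1 CBE libraries against 117.7 and 128.3 CPM in those of HOTSCRAMBL CBE, means of 329 ± 48.7 and 123 ± 7.53 CPM (SD, n = 2). The groups were far apart, with a log2 fold change of -1.42 ± 0.13 (SE, adjusted p = 1.13e-08), or 2.68-fold lower. SCARNA5 was at 572.0 and 463.6 CPM in the AAVS1 CBE libraries against 245.5 and 237.2 CPM in those of HOTSCRAMBL CBE. Both edited libraries lay below both controls, 2.14-fold lower by the fit (log2 fold change -1.10 ± 0.10 (SE), adjusted p = 3.18e-08). Both calls were kept under all 15 alternatives. SCARNA6, a second composite scaRNA from the same host, ATG16L1, had 87.8 and 88.1 CPM in the AAVS1 CBE libraries against 58.4 and 56.8 CPM in those of HOTSCRAMBL CBE. It fell by 0.62 on the log2 scale (adjusted p = 0.0317), and that call was lost without any 1 of the 8 libraries and without the line term.

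SNORA73B was the only SNORA called lower under base editing. It went from 1459 and 1854 CPM in AAVS1 CBE to 856.9 and 1190 CPM in HOTSCRAMBL CBE, the opposite direction to that under KO. The groups did not overlap, and the log2 fold change was -0.70 ± 0.08 (SE, adjusted p = 3.59e-07); the call was lost without the line term. SNORA22 rose here as well, from 10.4 and 20.4 CPM to 45.0 and 53.2 CPM (log2 fold change 1.74 ± 0.28 (SE), adjusted p = 1.02e-04, kept under all 15 alternatives). Its near copy SNORA22C rose from 3.30 and 9.68 CPM to 14.4 and 20.7 CPM (1.50 ± 0.41 (SE), adjusted p = 0.0196). SNORA23 rose from 82.3 and 107.4 CPM to 158.6 and 146.8 CPM (0.72 ± 0.16 (SE), adjusted p = 0.00284). In each of these 3 the groups stood apart, and the calls of SNORA22C and SNORA23 were lost without AAVS1 CBE replicate 1, AAVS1 CBE replicate 2 or HOTSCRAMBL CBE replicate 1, that of SNORA22C also without the line term. SNORA20, at 18.2 and 39.7 CPM in the AAVS1 CBE libraries against 44.4 and 42.0 CPM in those of HOTSCRAMBL CBE, did not pass (log2 fold change 0.67 ± 0.26 (SE), adjusted p = 0.117). SNORA79B, SNORA3B and SCARNA8, which are named for their level, passed with neither editor.

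Thus 5 members were called with both editors, 5 of the 14 called with KO and 5 of the 7 called with CBE. The share of all tested genes called with both editors was not computed, so this overlap does not set the members apart from other genes. The near copies SNORA22 and SNORA22C are counted separately among the 5. SNORA22, SNORA22C and SNORA23 were higher with both, SCARNA5 was lower with both, and SNORA73B was higher with KO and lower with CBE. The KO and CBE comparisons share no library. Across the 88 tested members their log2 fold changes had a Pearson correlation of 0.23 (Spearman 0.18), against 0.03 (0.12) across all 24057 genes. Over the 22 members with a mean of at least 10 CPM, a limit chosen after the values were seen, it was 0.78 (Spearman 0.77). The correlation over all genes of at least 10 CPM was not computed, so 0.78 has no background at the same level. These are descriptions across genes that come from the same libraries, and genes are not independent replicates.

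**Figure D3:**
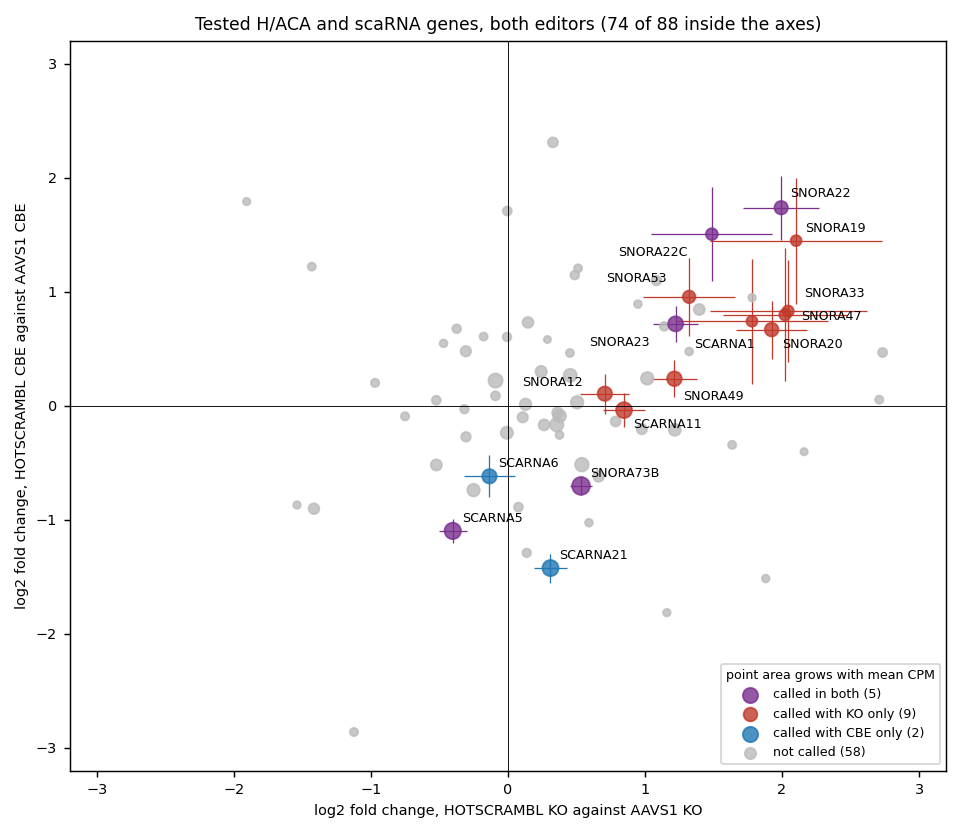
Log2 fold change with KO (horizontal) and with CBE (vertical) for tested members, with SE bars on the called ones and point area growing with mean CPM; 74 of the 88 lie inside the axes. SNORA22, SNORA22C and SNORA23 lie in the upper right, SCARNA5 in the lower left, and SNORA73B in the lower right.

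The difference between the editors was then tested itself, as the HOTSCRAMBL effect with KO minus that with CBE. It passed in 5 of 88 members, all with the KO effect the higher one, beside 3.19% of all tested genes (1.74% in that direction). SCARNA21 had the largest difference at 1.73 ± 0.17 in log2 (SE, adjusted p = 3.46e-07), followed by SNORA73B at 1.24 ± 0.11 (SE, adjusted p = 5.99e-08). Both calls were kept in all 14 alternatives that gave a value for this test. SNORA49 differed by 0.98 ± 0.23 (SE, adjusted p = 0.0164), SCARNA11 by 0.89 ± 0.21 (SE, adjusted p = 0.0156) and SCARNA5 by 0.69 ± 0.15 (SE, adjusted p = 0.00578). Those 3 calls were less stable. SNORA49 lost its call without any 1 of the 4 KO libraries, either AAVS1 CBE library or HOTSCRAMBL CBE replicate 2. SCARNA11 lost it without any 1 AAVS1 library or replicate 2 of either HOTSCRAMBL group, and SCARNA5 without either AAVS1 KO library or replicate 1 of any other group. Without the line term only SNORA73B and SCARNA21 remained. For SNORA22 the difference was 0.26 with an approximate 95% interval from -0.56 to 1.08 (adjusted p = 0.861), so that a difference of either sign remained within its error. For SNORA23 it was 0.51 with an interval from 0.06 to 0.95 (adjusted p = 0.296), and for SNORA20 1.26 with an interval from 0.53 to 1.99 (adjusted p = 0.0670).

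The 6 members with a mean of at least 100 CPM were SNORA73B, SCARNA5, SCARNA21, SCARNA11, SNORA23 and SNORA49, and every one of them was called in at least 1 comparison. Of 16 tested members with 10 to 100 CPM 6 were called, of 31 with 1 to 10 CPM 4, and of 35 below 1 CPM 0. The median standard error of the KO log2 fold change fell over those classes from 2.79 below 1 CPM to 0.71, 0.30 and 0.13. The 4 members called at 1 to 10 CPM had log2 fold changes of 1.78 to 2.10 with KO. The counts by level take a call in any of the 5 comparisons. The share of all tested genes called at the same levels was not computed, so these counts do not set the members apart from other genes.

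Summed levels show how far the large members set the class totals. SNORA73B made up 73.0% and 72.9% of the summed SNORA level with AAVS1 KO and 69.3% and 66.7% with HOTSCRAMBL KO. Under base editing its share was 73.9% and 70.7% in the controls but 51.7% and 59.6% in the HOTSCRAMBL libraries. The summed SNORA level without SNORA73B was 597 ± 149 CPM for the KO controls against 1100 ± 292 CPM for HOTSCRAMBL KO (SD, n = 2). For base editing it was 642 ± 179 CPM in the controls against 804 ± 3.54 CPM. Without that gene, both HOTSCRAMBL groups lay above their controls in every library. The summed SCARNA level was 1305 ± 154 CPM for AAVS1 KO against 1458 ± 254 CPM for HOTSCRAMBL KO, and 1290 ± 228 CPM for AAVS1 CBE against 762 ± 174 CPM for HOTSCRAMBL CBE (SD, n = 2). Here only HOTSCRAMBL CBE stood apart, with both libraries below the 6 others. No test was made on the sums. The C/D snoRNAs (SNORD), the sister class, summed to 2284 ± 795, 3064 ± 542, 2407 ± 751 and 1826 ± 334 CPM in the same order, and 6 of 63 tested were called with KO (5 higher, 1 lower) and 2 with CBE (1 each way).

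**Figure D4:**
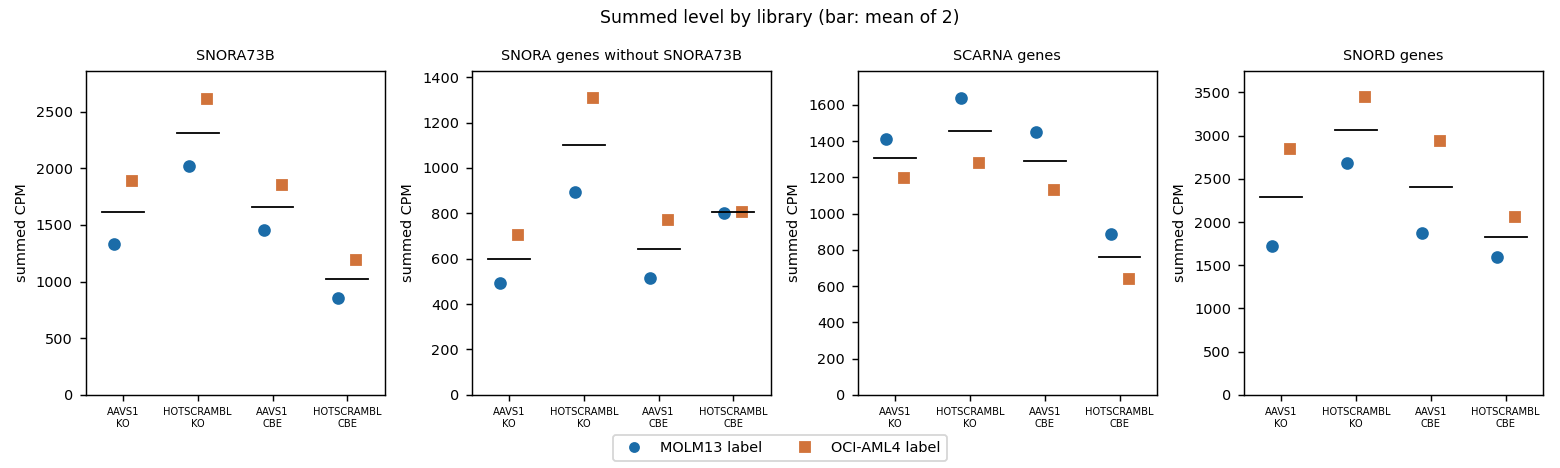
Summed CPM per library (axes from 0) of SNORA73B, the other SNORA genes, the SCARNA genes and the SNORD genes, with circles for the MOLM13 label, squares for the OCI-AML4 label and bars for the mean of 2. SNORA73B and SCARNA genes are lowest in HOTSCRAMBL CBE, whereas the other SNORA genes are above AAVS1 CBE there.

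Because members are made from host introns, each was set beside its host. For the 78 tested members with a tested host, the log2 fold changes of member and host had a Pearson correlation of 0.08 with KO and 0.04 with CBE, a description across genes. Of the 13 members called with KO that had a tested host, 3 had a host called in the same direction, 1 a host called in the opposite direction and 9 a host that was not called. With CBE these numbers were 2, 0 and 4 of 6. Of all tested genes, 8.76% were called with KO and 8.83% with CBE. The share of called hosts among members that were not called was not computed, so these numbers do not link the calls of members to those of hosts. These counts take RCC1 as the host of SNORA73B; counted with SNHG3 instead, which spans the same stretch on the same strand, SNORA73B would be a pair called in opposite directions with CBE and in the difference between editors. For the other 4 members called in that difference, and for SNORA73B with RCC1, the host was not called in it.

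Single pairs show both patterns. SNORA33 and RPS12 rose together with KO, RPS12 from 62.6 and 74.2 CPM to 232.6 and 312.0 CPM (log2 fold change 2.00, adjusted p = 5.64e-09). SCARNA5 fell with its host ATG16L1, an autophagy gene, which went from 125.9 and 107.2 CPM to 51.6 and 72.0 CPM with KO (-0.90, adjusted p = 0.00201). SNORA53 and its host SLC25A3, the mitochondrial phosphate carrier gene, both rose with KO (host 0.74, adjusted p = 0.00356). SNORA19, in contrast, rose while EIF3A, a translation initiation factor gene, fell by 0.63 on the log2 scale (adjusted p = 2.66e-05). With CBE, SCARNA21 fell with CHD3, a chromatin remodeller gene, whose own log2 fold change was -0.57 (adjusted p = 5.68e-04) against -1.42 for the scaRNA, and SNORA23 rose with IPO7, an importin gene (0.66, adjusted p = 0.00865). RCC1, the host of SNORA73B, passed with neither editor (-0.26 with KO and -0.14 with CBE). SNHG3 had a log2 fold change of -0.43 with KO (adjusted p = 0.0518, not called) and rose by 0.45 with CBE (adjusted p = 0.0202), where SNORA73B fell. Its difference between editors was -0.87 (adjusted p = 0.00573) against 1.24 for SNORA73B. RPL27A rose with both editors (1.40, adjusted p = 4.17e-09, and 0.96, adjusted p = 2.93e-06), while its intronic SNORA3B had 0.36 and -0.17 and passed with neither.

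**Figure D5:**
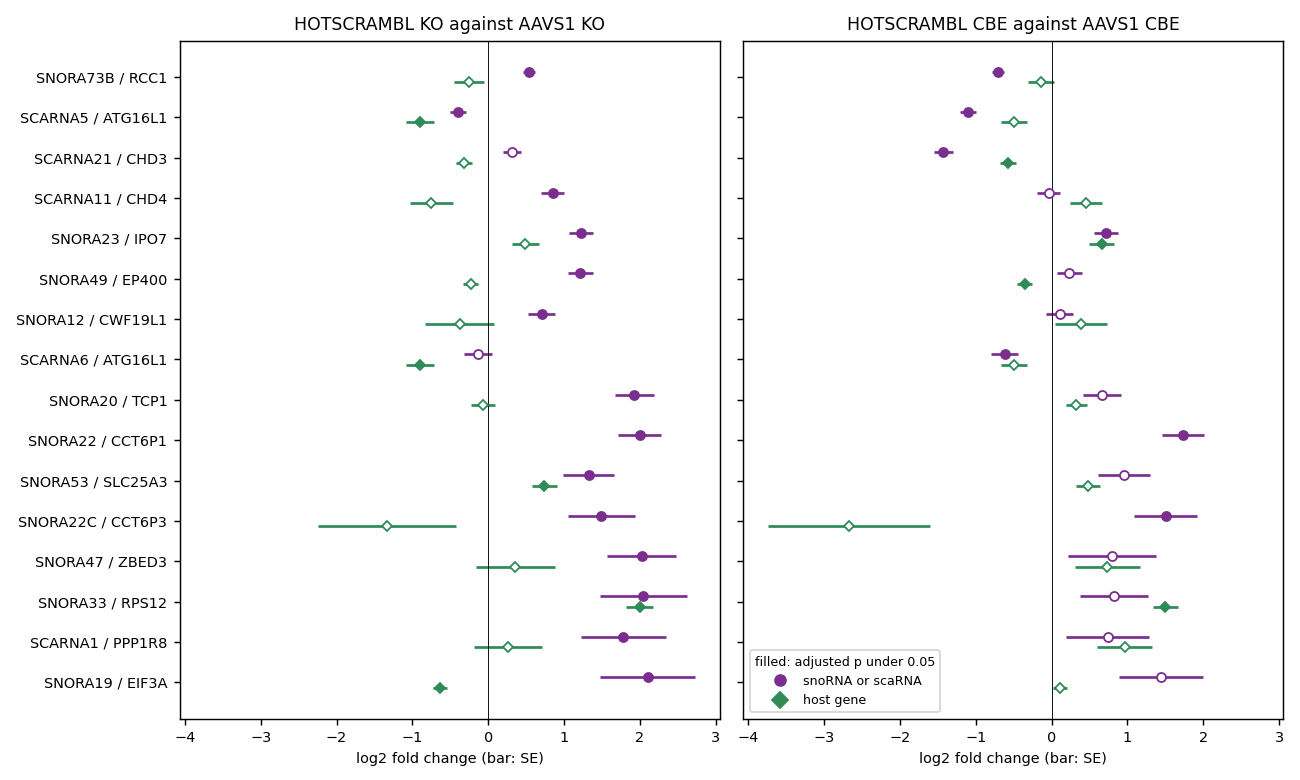
Log2 fold change with SE bars of the 16 called members (circles) and of their host genes (diamonds), with KO on the left and CBE on the right; filled symbols have an adjusted p under 0.05, and CCT6P1 had too few counts to be tested. Filled symbols of a member and its host fall together for SNORA33, SCARNA5 and SNORA53 with KO and for SCARNA21 and SNORA23 with CBE.

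Between the 2 control groups, AAVS1 KO and AAVS1 CBE, no member passed the test. With 2 libraries per group this does not show that their levels are equal. The fitted log2 difference was, for example, -0.99 for SNORA33 and 0.54 for SNORA47. Of the 88 members 0 passed and 0 had an unadjusted p under 0.05, of all 24057 genes 0 passed (percent called 0) and 918 had an unadjusted p under 0.05, and DESeq2 called 0 members and 33 genes.

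Between the labelled lines, 4 of 88 members passed, beside 0.495% of all tested genes. SNORA49 was lower under the MOLM13 label (log2 difference -0.97, adjusted p = 2.48e-05), as were SNORA12 (-0.66, adjusted p = 0.00763) and SNORA73B (-0.42, adjusted p = 6.64e-05). SCARNA11 was higher under it (0.81, adjusted p = 7.11e-05). All 4 had the same sign in each of the 4 groups, and the call of SNORA12 was lost when any 1 library was left out. The SNORA members leaned lower under the MOLM13 label and the SCARNA members higher, with medians of -0.17 and 0.20. The SNORD genes also leaned lower under it, with a median of -0.29. Over all tested members the median was -0.12. With 1 library left out it ran from -0.25 to 0.08, and was positive without either HOTSCRAMBL KO library. The medians by class were not computed in those fits.

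The proteins that work with these RNAs were read from 5 gene lists. Of the core proteins DKC1, NHP2, NOP10 and GAR1, which bind every H/ACA RNA, 0 of 4 passed with either editor, with list medians of -0.00 with KO and 0.16 with CBE. Of 4 assembly factors, RUVBL1, an ATPase of the snoRNP assembly machinery, rose with CBE from 31.6 and 35.1 CPM to 55.7 and 65.0 CPM (log2 fold change 0.85, adjusted p = 0.0139), and 0 passed with KO (medians -0.13 with KO and 0.11 with CBE). Of 5 genes of the Cajal body and of telomerase, whose RNA has an H/ACA domain, TERT, the reverse transcriptase, fell with both editors. It stood at 46.9 and 36.6 CPM with AAVS1 KO against 22.4 and 10.8 with HOTSCRAMBL KO (-1.36, adjusted p = 0.00682), and at 48.6 and 52.6 CPM with AAVS1 CBE against 21.6 and 29.7 with HOTSCRAMBL CBE (-1.01, adjusted p = 0.0111). Neither pair of groups overlapped, and the list medians were -0.27 and -0.07. Of 6 genes of snoRNA processing, such as PARN and EXOSC10, 0 passed with either editor (medians -0.28 and -0.12). Of 12 stand-alone pseudouridine synthases, which need no guide RNA, PUS1 fell with both (list medians -0.16 and 0.10). PUS1 was at 350.7 and 294.5 CPM in AAVS1 KO against 179.3 and 173.1 (-0.87, adjusted p = 2.18e-05), and at 333.2 and 278.9 CPM in AAVS1 CBE against 200.9 and 222.6 (-0.53, adjusted p = 0.00361). The PUS1 call with KO was kept in all 15 alternatives, and with CBE it was lost without replicate 1 of either group. The TERT calls were lost without either AAVS1 library, without HOTSCRAMBL KO replicate 2 or without HOTSCRAMBL CBE replicate 1, and that of RUVBL1 without any 1 of the 4 CBE libraries. In all, 2 of the 31 genes on the lists fell with KO, and 1 rose and 2 fell with CBE, which is near the 8.76% and 8.83% of all tested genes called.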

How the data were processed

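RNA from 8 ChIRP pull-down libraries was analysed. The authors deposited whole-number counts per gene, made by featureCounts 2.0.6 on Ensembl 112 (GRCh38) per the file headers, with both mates of a pair counted, no strand, no multimapping reads and none lying in 2 genes. The aligner is not given in the sources used here. The records of 2 genes broken over several lines were rejoined, and symbols were found for 42291 of 63140 genes. The members and lists were chosen with earlier results of these data known.

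Tests used edgeR 4.0.16 (R 4.3.3; quasi-likelihood F-test, robust, TMM scaling, filterByExpr with a minimum count of 10, 24057 genes). The model held the 4 groups and the labelled line, with 3 residual degrees of freedom and Benjamini-Hochberg adjustment over all tested genes at 0.05. The spread of each gene was drawn towards that of all genes, with prior degrees of freedom of 22.2 to 22.7. In this version the newer quasi-likelihood estimation (legacy = FALSE) was chosen after the data were seen, and the earlier one is among the alternatives. By label alone, the replicate numbers pair the groups, since number 1 is labelled MOLM13 and number 2 OCI-AML4 in each. Deviations of same-numbered libraries correlated at 0.00851 to 0.0245 over all tested genes and 0.172 to 0.318 over the 88 members. Over all genes almost no deviation was thus shared, and the values do not bear out the pairing given by the labels. Alternatives were DESeq2 1.42.0, DESeq2 size factors, library size alone, no filter, no line term, the 4 libraries of a contrast alone, the earlier estimation and leaving out each library. The procedure was run on simulated data with far less spread than these libraries, whose common biological coefficient of variation was 0.7076. That run does not show how well the procedure performs at the spread of these libraries or on members of low count.

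Members were named if called in a comparison (at most 12 per direction), if among the 12 highest or the 5 highest SCARNA genes per kilobase, with their hosts and every gene of 5 lists. SD and n refer to libraries. Library totals were 20548300 to 37970163, and counting error, which grows as a member's own count falls, is only part of the spread, since the reads carry no molecular identifiers. The sequence of 1 member and the values of 1 marker gene are not reported here.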

Additional observations from a re-analysis of the deposited data

Results flagged for a closer look

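For 5 members the HOTSCRAMBL effect differed between the editors when the difference itself was tested (edgeR, Benjamini-Hochberg adjusted p under 0.05), with the KO effect the higher in each. The difference in log2 fold change was 1.73 for SCARNA21, whose KO and CBE effects were 0.31 and -1.42. It was 1.24 for SNORA73B (0.53 and -0.70), the 1 member called in opposite directions. SNORA49 differed by 0.98 (1.21 and 0.24), SCARNA11 by 0.89 (0.85 and -0.04) and SCARNA5 by 0.69 (-0.40 and -1.10). The same sign of the difference was found in both labelled lines for all 5. No group of libraries was large enough for a check of single outlying libraries.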

How the results depend on the processing

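Calls remained with KO, with CBE, in the difference between editors and between the labelled lines under every setting run. Without the replicate block (the labelled line), 7 members were called with KO, 4 with CBE and 2 in the difference between editors, against 14, 7 and 5 with it. The share of all tested genes called without it was 7.22%, 6.82% and 2.09% in the same order. From only the 4 libraries of a contrast, 6 members were called with KO and 4 with CBE, beside 3.76% and 3.16% of all tested genes. When 1 library was left out, the counts ran from 5 to 11 with KO, 4 to 7 with CBE, 2 to 5 in the difference and 3 to 4 between the labelled lines; 0 were called between the controls in every setting run. DESeq2 called 18 members with KO and 11 with CBE, beside 17.5% and 14.3% of all genes. Between the lines it called 10 members, beside 3.2% of all genes. The earlier edgeR estimation, added after the data were seen, called 7 members between the lines, beside 0.802% of all genes.

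Values that turned sign had not passed the test in the first place. With 1 library left out, the log2 fold change with KO ran from -0.337 to 0.086 for SCARNA6 (-0.14 with all libraries) and from -0.327 to 0.075 for SNORA79B (-0.09). With CBE it ran from -0.443 to 0.233 for SCARNA11 (-0.04), from -0.067 to 0.311 for SNORA12 (0.10), from -0.547 to 0.126 for SNORA3B (-0.17) and from -0.428 to 0.422 for SCARNA8 (0.03). The difference between editors for SNORA22 (0.26) ran from -0.216 to 0.666. With CBE, scaling by library size alone gave -0.034 for SNORA12 and -0.110 for SCARNA8, for which the earlier estimation gave -0.039 and DESeq2 -0.053. The cause was not tested. Below 1 CPM the median standard error of the KO log2 fold change was 2.79, which holds both counting error and the spread between libraries.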

Other observations

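Both mates of a pair were counted, and the parity of the counts differed between members and other genes. Among values from 20 to 999, 72.8% of 386 member values were even, against 64.8% of 301 SNORD values and 63.5% of 107411 values of all genes. Of the 59 members with a count in every library, 13 had 8 even counts, SNORA22 and SNORA22C among them (named after their values were seen).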
